A study of Mus musculus with 17 samples.

Results

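A set of 9 genes of B cells, plasma cells and the transport of immunoglobulin A (IgA) across epithelium was followed through whole mammary glands of 4 mouse genotypes. They were the rows of the deposited table named Cd79a, Cd79b, Ms4a1, Pou2af1, Derl3, Igj, Xbp1, Pigr or Cxcr5, and all 9 symbols were found, on 10 of the 30843 loci because Xbp1 names 2 loci. AROM glands carried a tet-op-CYP19A1 transgene with MMTV-rtTA, and CYP19A1 encodes the estrogen-producing enzyme aromatase. CERM glands carried tet-op-Esr1 with MMTV-rtTA, and Esr1 encodes estrogen receptor alpha. BRCA glands were Brca1 fl11/fl11 with MMTV-Cre and p53+/-, so their cells had 1 functional p53 allele also where Cre was not active. WT glands were labelled wild type. All mice were nulliparous C57Bl/6 females, and the labels state neither their ages nor any inducer of the tet-op transgenes. The MMTV promoter is used to reach mammary epithelium, and some MMTV transgenes are also active in lymphoid cells. No group carried MMTV-rtTA, MMTV-Cre or p53+/- alone, so the effects of these cannot be told apart from those of the named change.

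B cells recognise antigen through a surface immunoglobulin that signals through the partner chains CD79A and CD79B. Once activated they can become plasma cells, which expand their endoplasmic reticulum and secrete antibody. In the mammary gland, plasma cells deliver IgA polymers held together by the joining chain, and the polymeric immunoglobulin receptor of the epithelium carries them across into milk.

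The table holds 8 pooled columns of FPKM, fragment numbers scaled by transcript length and library size, 1 for each genotype and read layout, single-end or paired-end. The labels list 17 libraries: 2 single-end libraries for each genotype, and 3 AROM, 3 CERM, 2 BRCA and 1 WT paired-end. Each value below is the authors' pooled value, so there was no spread between libraries, no test was possible, and depth is unknown. The 2 layouts may rest on the same RNA, so likeness between them is not replication in other animals. Both WT columns carry the decimals of a mean of 3 values, in 66.7% of the single-end and 66.5% of the paired-end values above 0, although the labels give 2 and 1 WT libraries, and the labels do not tell how the values were averaged. The glandular keratin gene Krt8 was between 63.4 and 212 FPKM in all 8 columns. Esr1 was at 8.49 and 8.41 FPKM in CERM against 7.27 and 6.89 in WT, so no excess of 2-fold was seen at this locus. Cyp19a1 was at 0.0591 and 0.0502 FPKM in AROM and listed at 0 elsewhere, but the transgene is human and this mouse locus does not check it. Trp53 was at 12.3 and 12.1 FPKM in BRCA against 41.1 and 34.5 in WT, and Brca1 at 3.28 and 3.29 FPKM in BRCA against 1.13 and 0.851 in WT, and a level summed over the locus checks no deletion within it. Pairs of values are given as single-end first and paired-end second throughout.

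Promoter sequence is shown for the 3 members whose windows held a match to a searched motif. They are Pigr, which sets AROM apart below, and Pou2af1 and Derl3, which are among the genes that set BRCA apart. Of the 9 members, 6 had an entry in the RefSeq promoter table (build GRCm38.p6, 250 bases before to 50 after the start), with Igj under its current name Jchain. These coordinates are of that build and not of mm9, which the submitters' processing notes name. Capitals mark a CACGTG E-box in Pigr, known from the human gene as a site of USF factors. They mark TGACGTG, the core of the unfolded protein response element that XBP1 binds, in Pou2af1. In Derl3 they mark the endoplasmic reticulum stress response element, read on the other strand. All 3 windows run 5′ to 3′ on the plus strand, the strand of each gene.
Pigr, chr1:130826584-130826683: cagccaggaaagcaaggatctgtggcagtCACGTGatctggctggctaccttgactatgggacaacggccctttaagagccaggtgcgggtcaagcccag
Pou2af1, chr9:51213590-51213689: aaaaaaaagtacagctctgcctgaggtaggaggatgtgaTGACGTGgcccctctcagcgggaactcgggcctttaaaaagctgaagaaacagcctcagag
Derl3, chr10:75893198-75893297: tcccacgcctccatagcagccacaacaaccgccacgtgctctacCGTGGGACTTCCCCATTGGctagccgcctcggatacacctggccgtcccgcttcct

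The E-box in Pigr began 71 bases before the start, and CACGTG also stood 168 bases before the start of Derl3. It is its own reverse complement and was in 7.15% of the 32851 promoters of the table. TGACGTG began 61 bases before the start of Pou2af1 and was in 2.01% of all promoters on either strand. The stress element, CCAAT and CCACG with any 9 bases between, began 156 bases before the start of Derl3 and was in 0.119% of all promoters. CACGTG and TGACGTG share the letters ACGTG but cannot both match there on 1 strand, and the E-box and stress element of Derl3 did not overlap. The octamer ATGCAAAT, bound by the POU factors that work with Pou2af1, was in none of the 6 member windows and in 1.74% of all promoters. Both strands were searched for each motif, and the windows of Cd79a, Igj and Xbp1 held none of them. A match describes these letters and is not evidence of binding.

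Levels per length spanned a wide range among the members. Igj, the joining chain gene, was between 59.1 and 223 FPKM and Xbp1, the gene of a transcription factor of secretory cells, between 120.2 and 256 FPKM in the 8 columns. Ms4a1 was the lowest by mean after Cxcr5, at 1.87 FPKM over the 8 columns, with 1.09 for Cxcr5. A locus was analysed when it had 1 gene symbol and a mean of at least 1 FPKM over the 8 columns, which held for 12543 loci and for all 10 member loci. Ms4a1 and Cxcr5 passed only through their BRCA values: without the BRCA columns their means were 0.324 and 0.817 FPKM, and the other 8 loci still reached 1. A locus was called higher or lower when the log2 ratio of FPKM + 1 was at least 1 in size, which is a 2-fold difference. That scale understates the ratio of low genes, so ratios of the FPKM values themselves are given beside it.

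**Figure D1:**
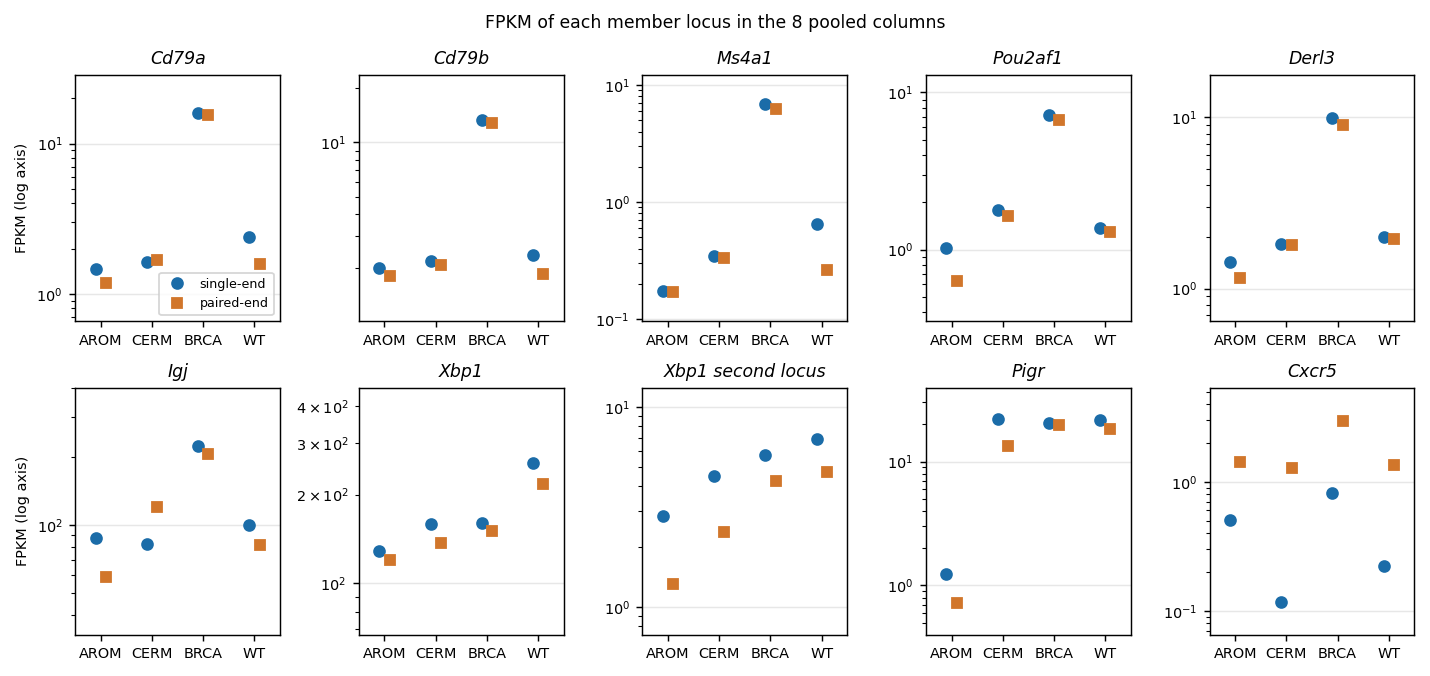
FPKM of each member locus on a log axis, by genotype, with circles for the single-end and squares for the paired-end pooled column; there are no error bars because each point is 1 pooled value. The BRCA points stand above the other 6 for Cd79a, Cd79b, Ms4a1, Pou2af1, Derl3 and Igj, and the AROM points stand below the other 6 for Pigr.

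The comparison of BRCA with WT asked which genes differ in the Brca1 model. Cd79a, Cd79b, Ms4a1, Pou2af1, Derl3 and Igj were called higher in BRCA in both layouts, while Xbp1, Pigr and Cxcr5 were not. Cd79a, which encodes a signalling chain of the B cell receptor, was at 16.0 and 15.5 FPKM in BRCA, against 2.40 and 1.57 in WT. Both BRCA values lay above all 6 values of the other genotypes, the highest of which was 2.40 FPKM. The ratios to WT were 6.67 and 9.89, and the log2 differences 2.32 and 2.69. Cd79b, the partner chain, was at 13.2 and 12.9 FPKM in BRCA, against 2.37 and 1.86 in WT, which gave ratios of 5.59 and 6.93. Here too the BRCA columns stood alone, with the others between 1.82 and 2.37 FPKM. Ms4a1, the gene of the B cell surface protein CD20, was at 6.83 and 6.21 FPKM in BRCA, against 0.652 and 0.264 in WT. Its ratios of 10.5 and 23.5 rest on low WT values, and its log2 differences on the FPKM + 1 scale were 2.24 and 2.51.

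Of the members active in antibody secretion, Pou2af1, a coactivator of octamer-dependent transcription in B cells, was at 7.21 and 6.64 FPKM in BRCA, against 1.37 and 1.29 in WT. Derl3, which takes part in the degradation of misfolded proteins at the endoplasmic reticulum, was at 9.81 and 9.02 FPKM in BRCA, against 2.004 and 1.94 in WT. The 2 genes thus differed by similar ratios, 5.28 and 5.16 for Pou2af1 and 4.90 and 4.65 for Derl3. Igj was at 223 and 206 FPKM in BRCA, against 100.4 and 81.8 in WT. Its ratios of 2.22 and 2.52 were the lowest of the 6 members called, on the highest levels. Cxcr5, the receptor of the follicle chemokine CXCL13, was at 0.825 and 2.98 FPKM in BRCA, against 0.220 and 1.34 in WT. It was highest in BRCA in each layout, at 3.74 and 2.22 times WT. Its log2 differences of 0.58 and 0.76 on the FPKM + 1 scale missed the 2-fold limit. With a pseudocount of 0.1 FPKM it passed that limit in both layouts.

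Xbp1 ran the other way, at 160 and 151 FPKM in BRCA against 256 and 218 in WT, ratios of 0.623 and 0.690 that were not called. The second Xbp1 locus was at 5.71 and 4.25 FPKM in BRCA against 6.90 and 4.71 in WT. The files do not say how the 2 loci relate, and without stated strand handling reads of overlapping loci cannot be told apart. Pigr was close to WT, at 20.4 and 19.7 FPKM in BRCA against 21.5 and 18.2 in WT. In all, 6 of the 10 member loci were called higher in BRCA than in WT in both layouts and none was called lower. Among all analysed loci 3.4% were called higher in the single-end and 4.6% in the paired-end columns, and 2.73% in both; 2.4% and 1.33% were called lower. The median log2 difference of the 10 loci was 1.47 and 1.53, beside 0.03 and 0.10 over all analysed loci. Since Ms4a1 passed the filter through BRCA, the same count without it and Cxcr5 was 5 of 8. Among all loci ranked from the highest difference, Cd79a stood at place 60 of 12543 in the single-end and place 41 in the paired-end columns.

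**Figure D2:**
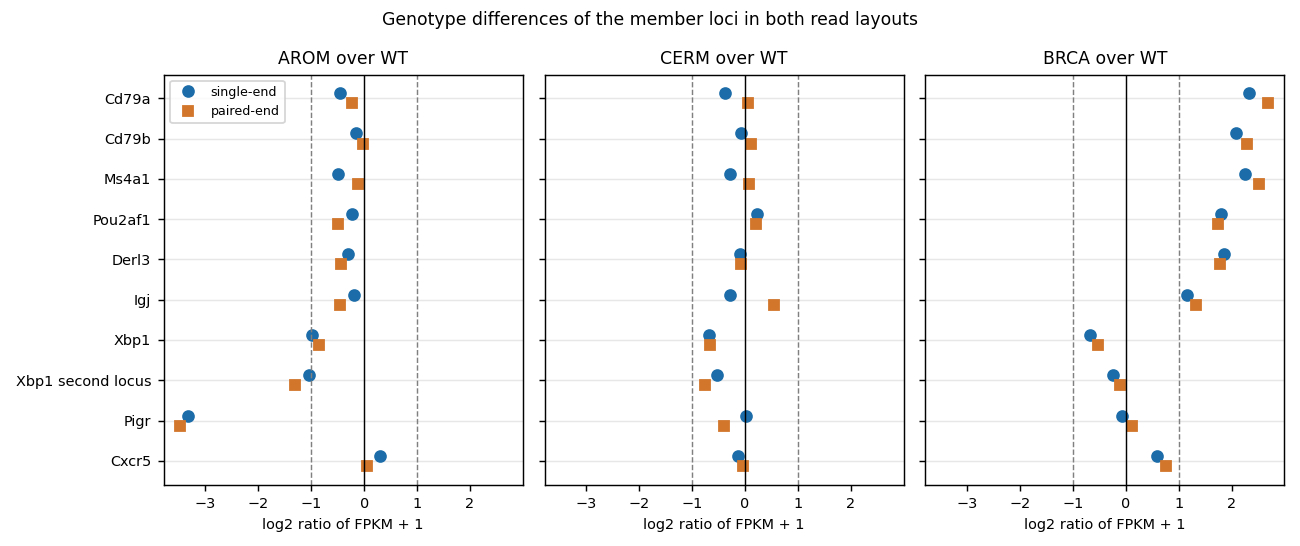
Log2 ratio of FPKM + 1 for each member locus in AROM, CERM and BRCA over WT, with circles for single-end and squares for paired-end columns and dashed lines at the 2-fold limits. In BRCA 6 loci lie beyond the upper line in both layouts; in AROM Pigr lies beyond -3 in both, and in CERM no locus passes either line.

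The wider lists of B cell and plasma cell genes were compared in the same way. All 26 listed B cell symbols were found and 18 were analysed, 5 of them members; 12 and 15 of the 18 were called higher in BRCA than in WT and none lower. With the filter taken outside the BRCA columns, 6 and 9 of 11 were called higher. The next 3 genes were analysed through their BRCA values alone, with means of 0.350 (Faim3), 0.640 (Spib) and 0.463 (Cd22) FPKM over the other 6 columns. Faim3, which encodes an IgM receptor, was at 6.04 and 5.62 FPKM in BRCA against 0.652 and 0.307 in WT. Spib, a transcription factor gene of B cells, was at 6.37 and 6.61 FPKM against 1.49 and 1.38. Cd22, an inhibitory coreceptor gene, was at 3.38 and 3.12 FPKM in BRCA against 0.566 and 0.451 in WT. Ebf1, a B lineage factor also made in stromal cells and adipocytes, was at 12.9 and 13.1 FPKM in BRCA against 12.5 and 11.5 in WT. Below the filter, the complement receptor gene Cr2 and the low-affinity IgE receptor gene Fcer2a, both of follicular B cells, were at 1.53 and 1.48 and at 2.88 and 2.55 FPKM in BRCA. Neither passed 0.118 FPKM in the other 6 columns.

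Of 15 plasma cell genes analysed out of 19 listed, 5 and 7 were called higher in BRCA than in WT and none lower, and 3 of them were members. Sdf2l1, a chaperone component of the endoplasmic reticulum, was at 28.2 and 31.0 FPKM in BRCA against 11.9 and 11.1 in WT. Tnfrsf13b, a receptor for the survival factors BAFF and APRIL, was at 4.01 and 3.37 FPKM in BRCA against 1.19 and 0.947 in WT. Sdc1, a plasma cell surface gene that epithelium also makes, was at 27.3 and 28.5 FPKM in BRCA against 16.5 and 13.0 in WT. It was called in the paired-end columns alone, with log2 differences of 0.70 and 1.08. Irf4, a transcription factor of plasma cells, was at 4.06 and 3.97 FPKM in BRCA against 2.28 and 2.03 in WT, and was called in neither layout. The unfolded protein response list had 0 and 1 of 18 genes called higher, with medians of 0.36 and 0.48. Hspa5, its main chaperone, was at 336 and 319 FPKM in BRCA against 181 and 168 in WT. Of 15 immunoglobulin locus symbols listed 3 were found and none was analysed, so antibody chains were not analysed here.

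Genes of other cell types also differed between BRCA and WT. In whole glands, more cells of a type and more RNA per cell cannot be told apart. The T cell list (14 of 16 analysed) had 4 and 9 genes called higher in BRCA than in WT, or 3 and 8 of 12 with the filter outside BRCA. Its summed level was 154 in both BRCA columns against 80.9 and 62.6 FPKM in WT, and no T cell gene was listed at 0. Thy1 alone made up 70.2 and 69.7 FPKM of that sum in BRCA and 40.4 and 28.7 in WT. Of the 14 genes, 12 and 13 were above WT and 2 and 1 below. Cd8a was below in both layouts, at 2.51 and 2.37 FPKM in BRCA against 2.84 and 2.43 in WT. The leukocyte and myeloid list had 7 and 8 of 11 called higher, with the pan-leukocyte gene Ptprc at 19.0 and 17.7 FPKM in BRCA against 5.35 and 3.83 in WT. In the lymph node and follicle list (8 of 15 analysed), 4 were called higher in each layout, or 2 of 6 with the filter outside BRCA. Among them was the follicle chemokine gene Cxcl13, at 15.2 and 13.4 FPKM in BRCA against 2.59 and 1.56 in WT. The homing receptor gene Ccr7 was at 5.70 and 5.71 FPKM in BRCA against 0.771 and 0.427 in WT, and was analysed through its BRCA values alone, with a mean of 0.535 FPKM over the other 6 columns. Markers of lymph node and mucosal vessels were not higher. Glycam1, made there and in milk, was at 512 and 458 FPKM in BRCA against 518 and 450 in WT, and Madcam1, an addressin gene of mucosal vessels, was at 1.47 and 1.35 FPKM against 10.2 and 8.06. The summed level of this list was 1472 and 1405 FPKM in BRCA against 1312 and 1130 in WT, with Ccl21c listed at 0 in all of these columns and Ccl19 in both WT columns and the single-end BRCA column. Of the IgA transport and homing list, 2 of 10 were called higher in each layout, and Madcam1 was called lower. Those higher were the lymphocyte integrin gene Itga4, at 3.12 and 3.68 FPKM in BRCA against 0.676 and 0.755 in WT, and the transport motor gene Myo5b, at 9.99 and 9.73 FPKM against 4.41 and 4.33. White adipocyte genes were below WT in 11 and 9 of 11, and 2 were called lower in each layout. Retn, the resistin gene of fat cells, was at 96.7 and 87.8 FPKM in BRCA against 858 and 616 in WT. Milk genes were called lower in 5 and 4 of 11, with summed levels of 8599 and 8029 FPKM in BRCA against 16990.4 and 13342 in WT. The part of these cell types, lymph node tissue included, in the member differences was not tested.

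**Figure D3:**
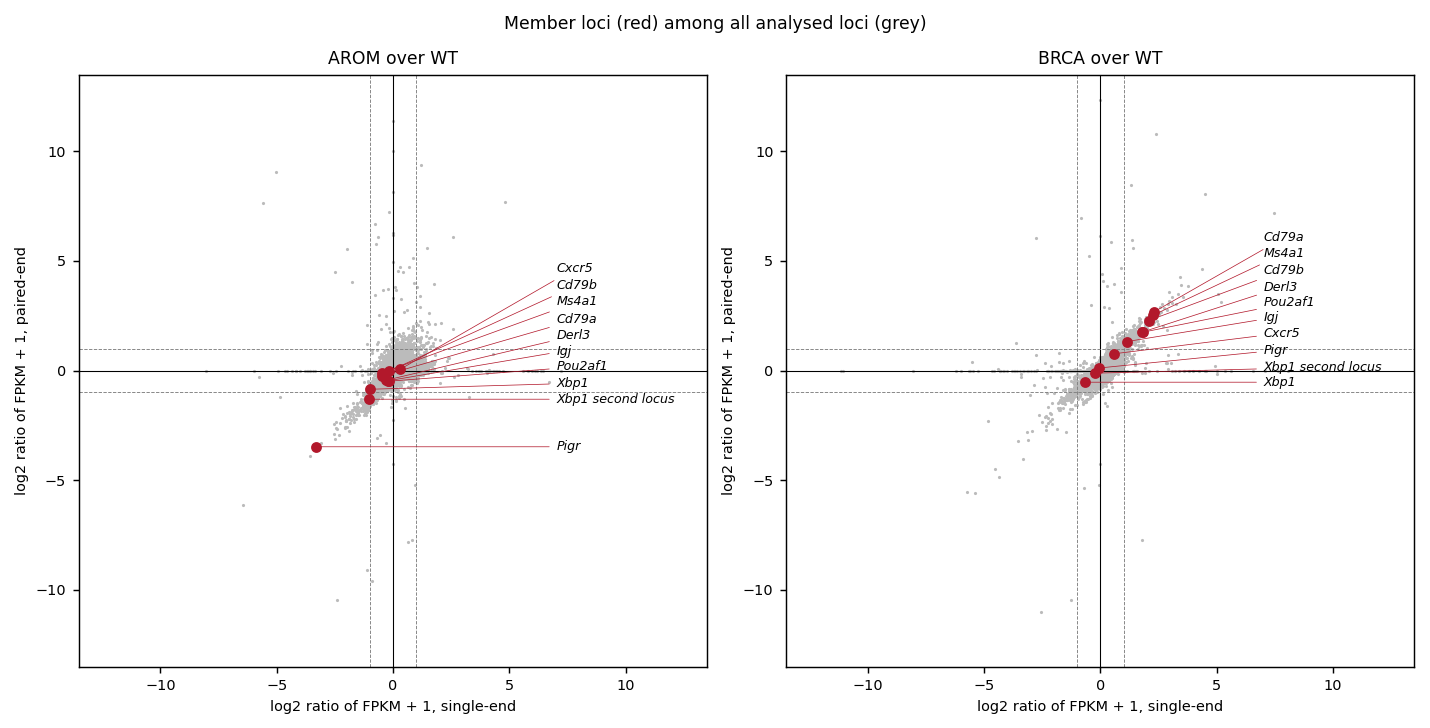
Each grey point is 1 of 12543 analysed loci, with its log2 ratio of FPKM + 1 in the single-end columns on the x axis and in the paired-end columns on the y axis, for AROM over WT and BRCA over WT; red points are the member loci and dashed lines mark 2-fold. Cd79a, Ms4a1 and Cd79b lie beyond 2 on both axes in BRCA, and Pigr lies beyond -3 on both axes in AROM.

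Set against Cd3e or Ptprc of the same column, Cd79a was highest in BRCA. The ratio of Cd79a to the T cell receptor gene Cd3e, of whose 2 loci the higher was used, was 2.59 and 1.99 in BRCA against 0.613 and 0.481 in WT. In AROM it was 0.798 and 0.726, and in CERM 0.310 and 0.421. Relative to Ptprc, Cd79a was at 0.843 and 0.878 in BRCA against 0.449 and 0.410 in WT. The log2 difference of BRCA from WT was 2.08 and 2.05 for Cd79a per Cd3e and 0.91 and 1.10 per Ptprc. Over whole lists it was smaller: the mean log2(FPKM + 1) of 18 B cell genes minus that of 14 T cell genes differed between BRCA and WT by 0.57 and 0.56. That list value was 0.29 and 0.34 in BRCA, 0.04 and 0.06 in AROM, -0.31 and 0.26 in CERM, and -0.28 and -0.23 in WT. BRCA and CERM thus lay close together in the paired-end columns on the list value. On Cd79a per Cd3e they did not, at 1.99 in BRCA and 0.421 in CERM. Igj per Cd79a was lowest in BRCA, at 13.9 and 13.3 against 41.8 and 52.1 in WT, with 59.7 and 50.2 in AROM and 51.1 and 71.2 in CERM. This ratio compares Igj and Cd79a levels and counts no cells.

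**Figure D4:**
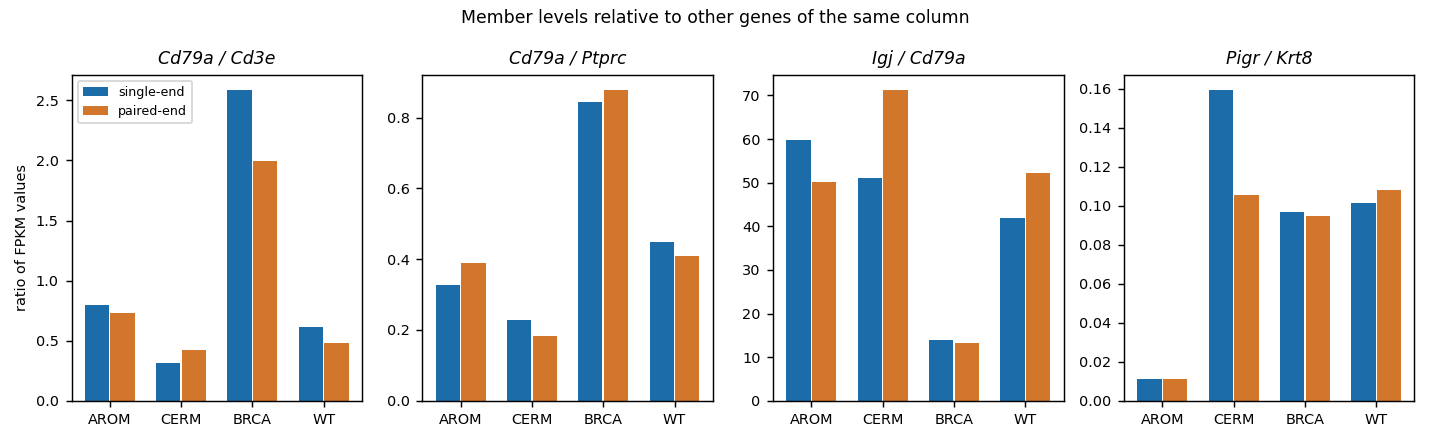
Ratios of FPKM values within each pooled column, by genotype and layout; bars start at 0 and carry no error because each is 1 value. Cd79a relative to Cd3e and to Ptprc is highest in BRCA, Igj relative to Cd79a is lowest in BRCA, and Pigr relative to Krt8 is lowest in AROM.

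In the comparison of AROM with WT, which asked what differs in glands labelled with the aromatase transgene, the IgA transporter gene stood out. Pigr, whose product carries IgA polymers across epithelium, was at 1.24 and 0.721 FPKM in AROM, against 21.5 and 18.2 in WT. Both AROM values lay far below the other 6, which ran from 13.5 to 21.9 FPKM. WT was 17.4 and 25.2 times AROM, and the log2 differences were -3.33 and -3.48. Ranked from the lowest difference, Pigr stood at place 23 of 12543 in the single-end and place 10 in the paired-end columns. Xbp1 was at 128 and 120.2 FPKM in AROM against 256 and 218 in WT, log2 differences of -0.99 and -0.85 just inside the 2-fold limit. The second Xbp1 locus was at 2.84 and 1.31 FPKM in AROM against 6.90 and 4.71 in WT, just outside that limit in the single-end columns at -1.04 and further out at -1.31 in the paired-end ones.

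These 2 loci, Pigr and the second Xbp1 locus, were the 2 of 10 called lower in AROM in both layouts, and none was called higher. Among all analysed loci 1.87% and 2.86% were called lower, and 1.4% in both layouts; 2.58% and 2.08% were called higher. No B cell member was called. Ms4a1 was at 0.174 and 0.171 FPKM in AROM against 0.652 and 0.264 in WT, so WT was 3.76 and 1.54 times AROM on values under 1 FPKM. Its single-end log2 difference was -0.49 on the FPKM + 1 scale, and it passed the 2-fold limit with a pseudocount of 0.1 FPKM. Pou2af1 was at 1.03 and 0.629 FPKM in AROM against 1.37 and 1.29 in WT, and WT was 1.33 and 2.05 times AROM. Cd79a was at 1.46 and 1.18 FPKM in AROM against 2.40 and 1.57 in WT, and Cd79b at 2.02 and 1.82 FPKM against 2.37 and 1.86. Igj was at 87.5 and 59.1 FPKM in AROM against 100.4 and 81.8 in WT. Apart from Cxcr5, each of the 10 loci was below WT in both layouts, and the medians were -0.39 and -0.45, beside 0.00 and -0.07 over all analysed loci. None of the 18 B cell genes analysed was called in the single-end columns, and 1 was called lower in the paired-end ones. That was Spib, at 0.188 FPKM in AROM against 1.38 in WT, barely past the limit. None of the 15 plasma cell genes was called in either layout.

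Genes of the epithelium that makes Pigr were also lower in AROM. Of 13 luminal epithelial genes analysed, 5 and 9 were called lower and none higher, with medians of -0.93 and -1.40 and summed levels of 501 and 295 FPKM in AROM against 1002 and 809 in WT. The alveolar transcription factor gene Elf5 was at 39.0 and 21.1 FPKM in AROM against 108 and 90.0 in WT. Milk genes were called lower in 8 and 10 of 11, with Csn2, the beta-casein gene, at 764 and 486 FPKM in AROM against 6520.2 and 4832 in WT. Glycam1, also on the milk list, was at 4.99 and 5.50 FPKM in AROM against 518 and 450 in WT. Log2 differences were -6.44 and -6.12 for Glycam1 and -3.20 and -3.44 for Csn1s2a, with medians of -2.34 and -1.88 over the milk list. Pigr, at -3.33 and -3.48, differed by more than the keratins did and by less than Glycam1. The ratio of Pigr to Krt8 was 0.0112 and 0.0114 in AROM against 0.101 and 0.108 in WT, and that to Krt18 0.00990 and 0.00940 against 0.0947 and 0.106. Skeletal muscle genes were called higher in AROM in 9 of 9 in the single-end columns and in none in the paired-end ones. In CERM against WT they were also called higher in 9 of 9 in the single-end columns, and in 1 of 9 in the paired-end ones. White adipocyte genes were higher in AROM than in WT in 11 of 11 in each layout, 1 and 7 of them by 2-fold or more. Their part and that of the epithelial share in the Pigr difference was not tested. Of 10 analysed genes of IgA transport and plasma cell homing, 2 were called lower in each layout, Pigr and Madcam1, the second at 1.77 and 0.827 FPKM in AROM against 10.2 and 8.06 in WT. Madcam1 was not particular to AROM: it was called lower than WT in BRCA, as given above, and in CERM, at 2.36 and 1.64 FPKM. Vcam1, an adhesion molecule gene of vessels and stroma, was at 11.6 and 7.82 FPKM in AROM against 20.7 and 16.1 in WT. The chemokine gene Ccl28, which draws IgA plasma cells to the lactating gland, was listed at 0 in all 8 columns, and such a 0 can be a failed estimate.

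With the Esr1 transgene in CERM in place of aromatase, the comparison was again with WT, and no member locus was called in either layout. Among all analysed loci 3.58% and 3.6% were called higher, and 1.23% and 0.861% lower. Pigr was at 21.9 and 13.5 FPKM in CERM against 21.5 and 18.2 in WT. Cd79a was at 1.62 and 1.68 FPKM in CERM against 2.40 and 1.57 in WT, so the direction changed with the layout. Derl3 was at 1.82 and 1.79 FPKM in CERM against 2.004 and 1.94 in WT. Igj was at 82.8 and 119 FPKM in CERM against 100.4 and 81.8 in WT, lower in the single-end and higher in the paired-end columns. Of 18 B cell genes, 0 and 7 were called higher in CERM. The 7 were Cd72, Cd37, Blnk, Btk, Cd74, Cd180 and Ly86, and none of them was a member. The members on that list had paired-end log2 differences between -0.04 (Cxcr5) and 0.21 (Pou2af1), with 0.06 for Cd79a. In those paired-end columns 9 of 11 leukocyte and myeloid genes were called higher in CERM and in the single-end columns none was, with summed levels of 718 and 1389 FPKM in CERM against 834 and 667 in WT. The largest value in these sums was that of Lyz2, at 411 and 919 FPKM in CERM against 556 and 457 in WT. By number of genes, 9 of 11 were above WT in the single-end columns and 2 below. Xbp1 was lower in both layouts, at 159 and 137 FPKM in CERM against 256 and 218 in WT, by ratios of 0.619 and 0.630. WT therefore had the highest Xbp1 level in each layout, followed by BRCA, CERM and AROM, with BRCA and CERM within 1.10 times each other.

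Between the engineered genotypes the same genes marked the differences. Pigr in CERM was 17.7 and 18.7 times AROM and was the 1 locus of 10 called higher in both layouts, where 1.81% and 4.07% of all analysed loci were called higher, 1.2% in both layouts, and 1.2% and 2.35% lower. Igj passed the limit there in the paired-end columns alone, at 119 FPKM in CERM against 59.1 in AROM. In BRCA against AROM, 7 and 8 of the 10 loci were called higher, 7 of them in both layouts. Among all analysed loci 5.23% and 10.3% were called higher, 4.57% in both, and 3.75% and 4.59% lower. Ms4a1, among those called, was analysed through its BRCA values alone. With the filter taken outside BRCA, 6 and 7 of 8 loci were called, beside 8.39% and 14.3% of all loci in either direction. Pigr was 16.6 and 27.4 times AROM in that comparison and Cd79a 10.9 and 13.2 times. The second Xbp1 locus was the one called in the paired-end columns alone, at 4.25 FPKM in BRCA against 1.31 in AROM. In BRCA against CERM, 6 and 5 of the 10 loci were called higher, 5 of them in both layouts. Among all analysed loci 2.7% and 2.6% were called higher, 1.55% in both, and 3.2% and 2.43% lower. Ms4a1 was again among those called in both layouts. With the filter taken outside BRCA, 5 of 8 loci were called in the single-end columns, beside 5.5% of all loci in either direction. Cd79a in BRCA was 9.88 and 9.25 times CERM, Derl3 5.40 and 5.04 times, and Pou2af1 4.04 and 4.06 times. Igj was the one called in the single-end columns alone, at 223 FPKM in BRCA against 82.8 in CERM, with 206 against 119 FPKM in the paired-end columns. Comparisons that share a genotype share its column, so they are not independent of each other.

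The members fell into unlike profiles over the 8 columns. On log2(FPKM + 1), centred within each layout, Pearson's correlation with Cd79a was 0.999 for Ms4a1, 0.997 for Cd79b, 0.99 for Derl3, 0.97 for Pou2af1, 0.94 for Igj and 0.89 for Cxcr5. It was 0.45 for Pigr and 0.01 for Xbp1. The 8 points come from 4 genotypes and the 2 layouts may share RNA, so these values only describe. Ms4a1 and Cxcr5 passed the filter through their BRCA values alone, so the filter itself favoured their likeness to Cd79a. The nearest loci were sought among the 1213 analysed loci of unshared symbol that spanned at least 2-fold in each layout. Those nearest to Cd79a were Ms4a1, Faim3, Cd79b, Gprc5a and St8sia6, from 0.999 to 0.995. All of them but Cd79b were below 1 FPKM in every column outside BRCA and were analysed through their BRCA values alone. High correlations of such loci with Cd79a, which was high in BRCA, were largely set by the filter. Those nearest to Igj were Pdia3, Bst1, Hn1l, Elf3 and Crabp1, from 0.988 to 0.981. Pdia3, a disulfide isomerase gene of the endoplasmic reticulum, was at 257 and 243 FPKM in BRCA against 159 and 123 in WT. Nearest to Pigr were Slc2a9, Slc28a3, Trps1, 1600029D21Rik and Fam46c, from 0.991 to 0.987. Slc28a3, a nucleoside transporter gene, was at 3.20 and 1.65 FPKM in AROM against 8.43 and 6.81 in WT.

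The level of Cxcr5 differed between layouts in every genotype. It was 2.86 times higher in the paired-end than in the single-end column of AROM, 10.9 times in CERM, 3.61 times in BRCA and 6.10 times in WT. Its order was the same in both layouts, with BRCA highest, then AROM, WT and CERM. These are ratios of FPKM. On the FPKM + 1 scale 1 member locus differed by 2-fold between layouts in CERM and 1 in BRCA, and none in AROM or WT, beside 3.69%, 2.47%, 3.42% and 2.89% of all analysed loci. The cause of the Cxcr5 gap was not tested. For Pigr the AROM column was lowest in both layouts while the order of the other genotypes changed, with CERM highest in the single-end and BRCA highest in the paired-end columns. For Cd79a, Cd79b and Ms4a1 the places of WT and CERM changed with the layout, so those neighbours cannot be ordered from these values.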

How the data were processed

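Total RNA of homogenized mammary glands was selected for polyadenylated RNA, made into TruSeq libraries and sequenced single- and paired-end on an Illumina HiSeq, per the labels' protocols. The submitters' processing notes name build mm9 and the tools TopHat, Cufflinks, FastQC and Trim Galore, without versions. The authors deposited 1 table of FPKM values, 1 pooled column per genotype and layout, and no source used here tells how libraries were pooled. Columns were compared within each layout as deposited. Loci with 1 symbol and a mean of at least 1 FPKM over the 8 columns were analysed, the log2 ratio of FPKM + 1 was taken (pandas 2.3.3, NumPy 2.4.6), and 2-fold was the limit for a call. The rule was tested on simulated data. The limma fit that had been listed for columns per library could not be used, so no p-value is given. Alternatives were a pseudocount of 0.1, a 1.5-fold limit, median-ratio scaling and other filters. Depth is unknown, so no counting interval is given.

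The 9 members and the 12 gene lists were chosen with earlier results of these data known. Named genes were the members, up to 4 genes of each list with the largest change in the same direction in both layouts, the 5 nearest profiles of Cd79a, Igj and Pigr, and the label check genes. Genes outside that rule, such as Irf4, Ebf1, Cr2, Fcer2a and Ccl28, were added after their values were seen. Where a symbol named several loci, lists used the one with the highest mean.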

Additional observations from a re-analysis of the deposited data

How the results depend on the processing

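No paired analysis was possible because the table holds pooled columns without replicate numbers, and for the same reason no library could be left out. Counts of members past 2-fold over the 12 comparisons by layout stayed within 1.5 times under both other filters on low values and with the filter outside BRCA, which was chosen after seeing the data. Shares of all analysed loci called in either direction are given beside the counts. At a 1.5-fold limit the count for CERM against WT was 1 and 2 in place of 0, all lower, beside 11.6% and 13%. That for BRCA against CERM was 7 in place of 6 in the single-end columns, beside 16.6%. In the paired-end columns it was 8 in place of 5. With a pseudocount of 0.1 FPKM the count for AROM against WT in the single-end columns was 3 in place of 2, beside 6.64%. The locus gained was Ms4a1. The count for CERM against AROM in the single-end columns was then 2 in place of 1, beside 4.46%. With median-ratio scaling, that in the paired-end columns was 1 in place of 2, beside 6.6%, the locus lost being Igj. With 1 locus per symbol, also chosen after seeing the data, the count for AROM against WT was 1 in place of 2 in each layout. With a pseudocount of 0.1 FPKM the count for BRCA against WT was 7 in place of 6 in each layout. The locus gained was Cxcr5. No called member changed sign under any alternative run. Scaling moved columns by at most -0.15 (log2, AROM paired-end). The log2 difference of BRCA from WT in Cd79a per Cd3e was 2.08 and 2.05, against 0.91 and 1.10 per Ptprc and 0.57 and 0.56 for the mean of the B cell list minus that of the T cell list. Unknown depth limits the values under 1 FPKM most, those of Ms4a1 and Cxcr5.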
